A study of Mus musculus with 6 samples.

Results

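MiR-103 and miR-107 were examined in LLC1 cells, a line established from a mouse Lewis lung carcinoma, grown for 48 h either as a 2D monolayer or under lr-ECM 3D conditions, that is, embedded in a laminin-rich extracellular matrix gel at 0.5 mg/ml. Both groups were the same cell line with no genetic change or drug, and each held 3 samples, labelled as biological replicates, with 1 array per sample. The 3D cells were plated over agarose and the 2D cells on plastic. Plate format also differed, and seeding was set per area in 2D and per well in 3D. The 2D and 3D cultures thus differed in surface, plate and seeding as well as in gel. All miRNAs whose array name begins with mmu-miR-103 or mmu-miR-107 were taken, which gave mmu-miR-103-3p and mmu-miR-107-3p, 2 of 566 mouse miRNAs. Below they are written without the species prefix. They are read by 4 of the 1672 mouse miRNA probes, 2 probes for each miRNA. The rule for taking them used names alone, though it was set with earlier results of these data known.

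A miRNA guides the silencing complex to messenger RNAs that pair with its seed, the bases near its 5′ end, and lowers the output of those messages. MiR-103 and miR-107 are processed from introns of the pantothenate kinase genes, which encode the first enzyme of coenzyme A synthesis, and are therefore made from the same primary transcripts as these metabolic enzymes. They are known for limiting insulin sensitivity through Caveolin-1 and, in tumour cells, for repressing Dicer, the enzyme that cuts miRNA precursors. MiR-103 is also a common reference miRNA in quantitative PCR, so its steadiness between culture conditions is of practical interest.

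The mature sequences are shown because they set what each probe can tell apart. Both are 23 bases long in RefSeq, and the seed, bases 2 to 8, is in capitals.
miR-103-3p: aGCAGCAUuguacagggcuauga
miR-107-3p: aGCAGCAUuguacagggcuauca
The pair shares its seed and differs at 1 base, G22C, counted from the 5′ end with the base of miR-103-3p first. A RefSeq mature sequence of the same name was found for 466 of the 566 mouse miRNAs, and these 2 were the only ones of the 466 with this seed. With 22 of 23 bases identical, cross-hybridisation between the 2 miRNAs cannot be told apart from signal of each, and the probe sequences were not used here.

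The genes are shown next because 3 loci give rise to the 2 mature miRNAs. In the GRCm38.p6 assembly of RefSeq, Mir103-2 lies at chr2:131288052-131288137 on the plus strand within the span of Pank2, Mir103-1 at chr11:35782396-35782481 on the plus strand within Pank3, and Mir107 at chr19:34820687-34820773 on the minus strand within Pank1. The hairpins are given 5′ to 3′ with the mature miRNA in capitals.
Mir103-2: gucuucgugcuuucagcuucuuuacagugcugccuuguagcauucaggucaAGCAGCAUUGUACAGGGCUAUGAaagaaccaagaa
Mir103-1: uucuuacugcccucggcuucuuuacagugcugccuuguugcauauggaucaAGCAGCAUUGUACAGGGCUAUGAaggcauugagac
Mir107: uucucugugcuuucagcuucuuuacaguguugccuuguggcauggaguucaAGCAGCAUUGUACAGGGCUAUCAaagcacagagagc
In each hairpin the mature miRNA occupies bases 52 to 74. Mir103-2 and Mir103-1 give an identical mature sequence, so the signal of miR-103-3p sums over both genes, and the share coming from the Pank2 and the Pank3 locus cannot be told apart. Host gene mRNA was not analysed here.

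Array brightness varied before any scaling. Averaged over miRNA probes, 2D replicates 1, 2 and 3 had signals of 21.4, 5.03 and 40.4 linear units, against 37.8 to 49.9 for the lr-ECM 3D arrays, so 2D replicate 2 stood apart and results are also given without it. Each array was therefore scaled to the mean signal of the 2D arrays, and values are log2 of the scaled signal. The scanner software flags spots that are well above background, and a probe needed this flag on 50% of its spots or more to be given that name on an array. Each culture condition had its own slide and scan day, with 0 of the 2 slides shared. Slide, scan day and culture condition cannot be told apart in any comparison below. All probes other than controls were for miRNAs, so the cell line was not checked against marker genes. The RNA was from whole cultures, in which a smaller number of expressing cells and a lower level per cell cannot be told apart.

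MiR-103-3p was measured above background on all 6 arrays. Its brighter probe, A_54_P1341, gave signals before scaling of 109, 31.6 and 237 linear units in 2D, replicates 1 to 3 in order, and of 285, 254 and 242 in lr-ECM 3D. These followed the brightness of the arrays, with 2D replicate 2 lowest by far. On that array 6 of the 10 spots of the probe were well above background, and its mean was 1.08 times the lowest signal counted as such there. After scaling, the log2 signals were 6.83, 7.13 and 7.03 in 2D and 6.99, 7.19 and 7.15 in lr-ECM 3D. The groups overlapped, since 2D replicates 2 and 3 lay above lr-ECM 3D replicate 1. Of the 48 miRNAs that exceeded background on every array, 37.5% had groups that did not overlap.

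MiR-107-3p was measured with less room above background. Its brighter probe, A_54_P1420, gave signals before scaling of 65.7, 19.0 and 153 linear units in 2D and of 191, 166 and 160 in lr-ECM 3D. On 2D replicate 2, 0 of its 10 spots were well above background and its mean was 0.649 of the lowest signal counted as such. The miRNA was thus well above background on 2 of 3 arrays in 2D and on 3 of 3 in lr-ECM 3D, and entered the test through the lr-ECM 3D arrays. After scaling, the log2 signals were 6.09, 6.40 and 6.40 in 2D and 6.41, 6.58 and 6.56 in lr-ECM 3D. All lr-ECM 3D values were above all 2D values, and lr-ECM 3D replicate 1 was barely above 2D replicates 2 and 3.

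**Figure D1:**
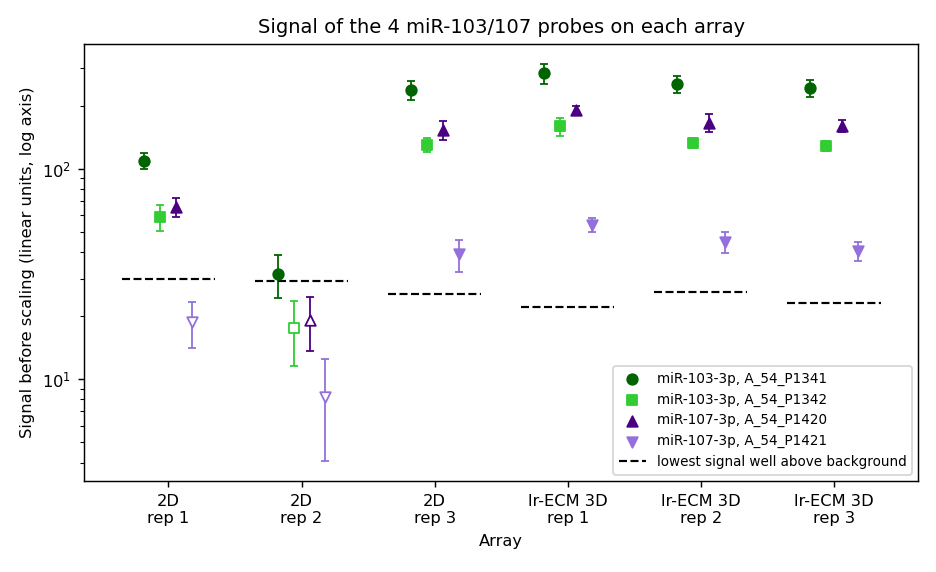
Signal before scaling of the 4 probes of miR-103-3p and miR-107-3p on each of the 6 arrays, in linear units on a log axis; points are means over the spots used, bars are SDs between spots of the array, open symbols are not well above background and dashed lines mark the lowest signal well above background on the array. On 2D replicate 2 only the brighter miR-103-3p probe, at 31.6, is well above background; on the lr-ECM 3D arrays all 4 probes are.

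The first comparison asked whether the level of either miRNA differed between lr-ECM 3D and 2D cultures. Neither was called. The log2 signal of miR-103-3p averaged 7.00 ± 0.15 in 2D and 7.11 ± 0.11 in lr-ECM 3D (SD, n = 3 each). The change, lr-ECM 3D minus 2D, was 0.11 on the log2 scale with a standard error of 0.14, a fold of 1.08 (limma, adjusted p = 0.585). That of miR-107-3p averaged 6.30 ± 0.18 in 2D and 6.52 ± 0.09 in lr-ECM 3D (SD, n = 3 each), and its change was 0.22 with a standard error of 0.14, a fold of 1.16 (limma, adjusted p = 0.349). A call required an adjusted p under 0.05 over the 120 tested miRNAs and a fold of at least 2. Of the tested miRNAs 11.7% met it, and of the 48 well above background on all arrays 0 did. The groups did not overlap for miR-107-3p, as for 42.5% of the tested miRNAs.

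The precision of the comparison bounds the size of a change on this scale. The 95% interval of the fold ran from 0.853 to 1.37 for miR-103-3p and from 0.911 to 1.48 for miR-107-3p. With this scaling both intervals thus ended short of a fold of 2. Other processing gave upper ends past a fold of 2, listed on the log2 scale with miR-103-3p first. They were 1.68 and 1.82 with the 75th percentile over all probes, and 1.25 and 1.02 with normexp background correction. With total gene signal they were 1.17 and 1.05, with the deposited values 2.32 and 2.46, and without scaling 3.15 and 3.27. Quantile normalization and the mean over probes kept them under it. The reported intervals of the log2 change were 0.69 and 0.70 wide, against a median of 1.11 over the tested miRNAs. Without 2D replicate 2, the changes were 0.18 (adjusted p = 0.294) and 0.27 (adjusted p = 0.165) by limma. With each array scaled to its 75th percentile over probes detected on all arrays, the changes were 0.43 (limma, adjusted p = 0.0382) and 0.53 (limma, adjusted p = 0.0357), still under a fold of 2, while the median of all tested miRNAs moved from -0.11 to 0.21.

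**Figure D2:**
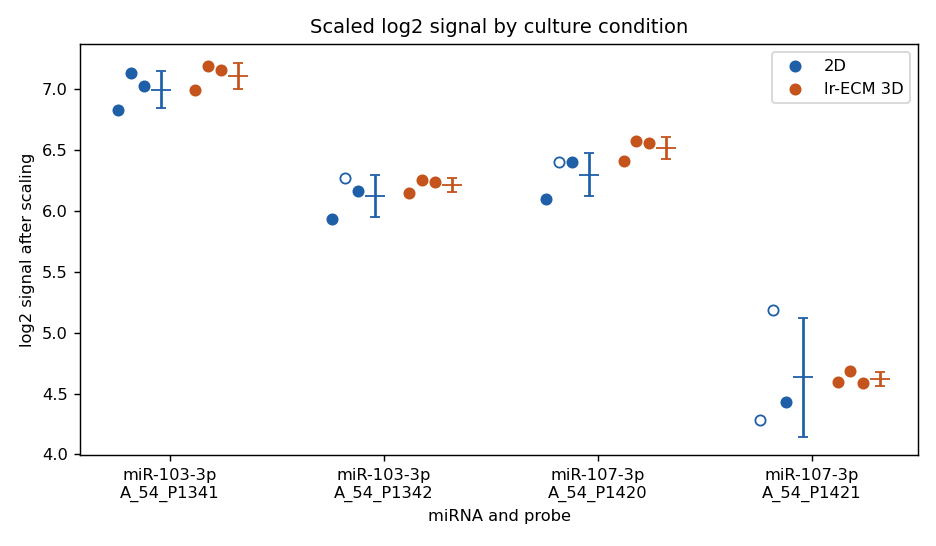
Log2 signal after scaling for each of the 4 probes in 2D and lr-ECM 3D cultures; each point is an array, open points are not well above background, and crossbars are the mean ± SD of 3 arrays. The brighter miR-103-3p probe overlaps between groups at means of 7.00 and 7.11, and the brighter miR-107-3p probe does not overlap at 6.30 and 6.52.

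The second probe of each miRNA gave a separate reading. For miR-103-3p, probe A_54_P1342 gave log2 signals of 5.94, 6.27 and 6.16 in 2D and of 6.15, 6.25 and 6.24 in lr-ECM 3D. Its change was 0.09 with a standard error of 0.13 (limma on probes, adjusted p = 0.64), close to the 0.11 of the brighter probe. For miR-107-3p, probe A_54_P1421 gave 4.28, 5.19 and 4.43 in 2D and 4.60, 4.69 and 4.58 in lr-ECM 3D. It was well above background in 2D on replicate 3 alone, and its change was -0.01 with a standard error of 0.26 (limma on probes, adjusted p = 0.979). Both dimmer probes overlapped between the groups. Of the 4 probes 0 were called, where 21.1% of the 237 tested probes were. By miRNA, 0 of the 48 well above background on all arrays were called. The 2 probes of miR-107-3p thus gave changes of 0.22 and -0.01. The -0.01 depended on the 5.19 of 2D replicate 2, where the mean was 0.280 of the lowest signal well above background. The 4.28 of 2D replicate 1 was not well above background either, with a mean at 0.628 of that limit. No direction is therefore read from this probe.

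At like brightness the unscaled signals allow a direct look. The array of 2D replicate 3, with a mean signal of 40.4, was close to those of lr-ECM 3D replicate 2 (38.7) and replicate 3 (37.8). MiR-103-3p gave 237 linear units on the 2D array, then 254 and 242 for lr-ECM 3D. MiR-107-3p gave 153 and then 166 and 160. The spots of the brighter probes had coefficients of variation of 3.92% to 28.3% within an array over all 6 arrays. These 3 arrays allow no test, with 1 of them in 2D.

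The position of the pair among all miRNAs was described next. The median change of the 120 tested miRNAs was -0.11, with 44 above 0 and 76 below. MiR-103-3p lay 0.22 above that median with 40 miRNAs changed more in the upward direction, and miR-107-3p lay 0.33 above it with 34. Both stood above most miRNAs and below the 13 that were called higher. Over the 6 arrays the log2 signal of miR-103-3p had an SD of 0.13 and that of miR-107-3p an SD of 0.17, against a median of 0.38. From the smallest SD upward these were in places 13 and 22 of 120, so both were among the steadier miRNAs across the cultures.

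Among the 48 miRNAs detected on all 6 arrays, miR-103-3p had the highest change. Of these 48, 2 lay above 0 and 46 below, with a median of -0.27 and a range from -0.86 to 0.11, and 0% were called. MiR-29a-3p, a repressor of collagen and other matrix genes, came next at 0.10, and miR-125a-5p followed at -0.00. The first 2 differed by far less than the standard error of 0.14, so their order is not resolved. MiR-103-3p kept the first place under 16 of 22 alternative settings, was in place 2 with the mean over probes and without 2D replicate 1 or 3, in place 5 of 75 without 2D replicate 2, and in place 12 with quantile normalization and 14 with normexp background correction. The lr-ECM 3D arrays held 120 to 151 detected miRNAs against 48 to 101 on the 2D arrays, and the part of this difference in the lower scaled values of the 46 was not tested.

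The second comparison asked whether the balance of the 2 miRNAs differed between the cultures. The difference of the log2 signals of the brighter probes on 1 array does not depend on that array's scaling factor, and since probes differ in response only its change between groups is read. MiR-103-3p minus miR-107-3p was 0.73, 0.73 and 0.63 in 2D and 0.58, 0.61 and 0.60 in lr-ECM 3D. The value of 2D replicate 2 is uncertain. There miR-107-3p was at 0.649 of the lowest signal well above background and miR-103-3p at 1.08 times it. MiR-107-3p also entered the tested set through the lr-ECM 3D arrays alone. All 6 values lay within 0.157 of each other, and the groups did not overlap, as in 51% of all 7140 pairs of tested miRNAs and 30.1% of the 1128 pairs among the 48 above background on all arrays. The mean went from 0.70 ± 0.06 to 0.59 ± 0.02 (SD, n = 3 each), a change of -0.10 (exact two-sided permutation test, p = 0.1, the smallest that 3 arrays against 3 allow, 0.175 after Benjamini-Hochberg adjustment over 14 differences).

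That change was small and did not hold its sign. A smaller change was found in 11.4% of the pairs of tested miRNAs, and the median size was 0.63. The change was 0.08 with quantile normalization and 0.09 with normexp background correction, so the direction turned. The dimmer probes gave a change of 0.10 for the same difference, with overlapping groups (exact permutation test, p = 1). That value depended on 2D replicate 2, at 1.08, where neither dimmer probe was well above background. The other 2D arrays were at 1.66 and 1.73, and lr-ECM 3D at 1.55, 1.57 and 1.65, so no direction is read from the dimmer probes. Within miR-103-3p the brighter minus the dimmer probe ranged from 0.84 to 0.94 over the 6 arrays, while within miR-107-3p it ranged from 1.21 to 1.98, lowest on 2D replicate 2.

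**Figure D3:**
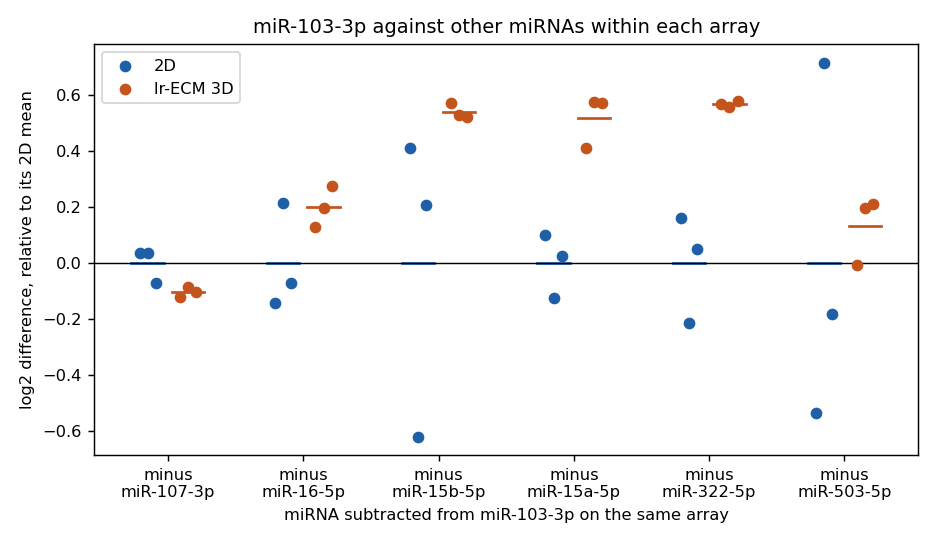
Log2 signal of miR-103-3p minus that of miR-107-3p and of 5 related miRNAs on the same array, each set relative to its mean over the 2D arrays; points are arrays and short lines are group means. The values against miR-107-3p stay within 0.157 of each other, while those against miR-15a-5p, miR-15b-5p and miR-322-5p are 0.52 to 0.57 higher in lr-ECM 3D without overlap, with the lowest 2D value against miR-15b-5p on replicate 2 (0.23 without that array).

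The miR-15/16 group was compared because its members carry the same core of letters, AGCAGC, near their 5′ ends. MiR-15 and miR-16 repress cyclins and other drivers of the cell cycle and BCL2, an inhibitor of cell death, and miR-322 and miR-503 are their relatives from a cluster on the X chromosome. The core lies at bases 1 to 6 in miR-103-3p and miR-107-3p and at bases 2 to 7 in the 5 relatives below, so the seeds, in capitals, overlap but are offset by 1 base.
miR-15a-5p: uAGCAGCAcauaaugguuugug
miR-15b-5p: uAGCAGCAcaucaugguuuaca
miR-16-5p: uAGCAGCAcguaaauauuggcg
miR-322-5p: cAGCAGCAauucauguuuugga
miR-503-5p: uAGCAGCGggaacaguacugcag
Of the 466 miRNAs with a sequence, 9 (1.93%) held AGCAGC within bases 1 to 8, the 2 of the family and 7 others. Of these 7, 5 were tested, and miR-195a-5p and miR-497a-5p were well above background on 0 arrays.

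None of the 5 tested relatives was called, against 11.7% of all tested miRNAs. Of the 5, 3 were well above background on all arrays, and 0 of the 48 such miRNAs were called. All 5 relatives had a change below 0, as did 76 of the 120 tested miRNAs and 46 of the 48. The median of the relatives was -0.40, against -0.11 for all tested miRNAs and -0.27 for the 48. MiR-16-5p had log2 signals of 8.15, 8.10 and 8.28 in 2D and 8.04, 8.18 and 8.06 in lr-ECM 3D, a change of -0.09 (limma, adjusted p = 0.625). It was the steadiest of them and, like miR-103-3p, overlapped between the groups. MiR-15b-5p had 7.52, 8.86 and 7.93 in 2D and 7.53, 7.77 and 7.74 in lr-ECM 3D, a change of -0.43 (limma, adjusted p = 0.436), with 2D replicate 2 far above the rest. MiR-15a-5p had 6.57 ± 0.27 in 2D and 6.17 ± 0.02 in lr-ECM 3D (SD, n = 3 each), a difference of -0.40 (limma, adjusted p = 0.214), and was well above background on 2 of 3 arrays in 2D. MiR-322-5p had 7.04 ± 0.34 in 2D and 6.59 ± 0.11 in lr-ECM 3D (SD, n = 3 each), a difference of -0.45 (limma, adjusted p = 0.242). MiR-503-5p, at 4.96 ± 0.51 and 4.94 ± 0.03 (SD, n = 3 each), had a difference of -0.02 (limma, adjusted p = 0.962) and was not well above background on 2D replicate 2, its lowest value at 4.38. Without that array the difference was -0.31 for miR-503-5p (limma, adjusted p = 0.0593), -0.05 for miR-15b-5p (limma, adjusted p = 0.833), -0.27 for miR-15a-5p (limma, adjusted p = 0.126) and -0.28 for miR-322-5p (limma, adjusted p = 0.159). For miR-15a-5p and miR-322-5p the lr-ECM 3D values lay below all 2D values, and for the other 3 the groups overlapped; a count of 2 of 5 is close to the 42.5% of all tested miRNAs without overlap.

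Set against these relatives on the same array, both members gave mean differences that were higher in lr-ECM 3D, though none of these could pass the threshold. For miR-103-3p the change of the difference was 0.52 against miR-15a-5p, 0.54 against miR-15b-5p and 0.57 against miR-322-5p. For miR-107-3p it was 0.62, 0.64 and 0.67 in the same order. In all 6 cases the groups did not overlap (exact two-sided permutation test, p = 0.1 each, the smallest possible, 0.175 after adjustment over 14 differences), as in 51% of all pairs of tested miRNAs. The 6 cases reuse 3 relatives and 2 nearly identical members and are not independent. Against miR-16-5p the change was 0.20 for miR-103-3p with overlapping groups (exact permutation test, p = 0.3) and 0.30 for miR-107-3p without overlap (exact permutation test, p = 0.1). Against miR-503-5p it was 0.13 (exact permutation test, p = 0.7) and 0.24 (exact permutation test, p = 0.6), both with overlap. Some of these values depended on 2D replicate 2, the dim array. Without it, the change against miR-15b-5p was 0.23 for miR-103-3p and 0.32 for miR-107-3p. In the same order it was 0.49 and 0.58 against miR-503-5p, and 0.31 and 0.39 against miR-16-5p. The changes against miR-15a-5p, at 0.46 and 0.54, and against miR-322-5p, at 0.46 and 0.55, kept most of their size. This leave-out was chosen after seeing the data.

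**Figure D4:**
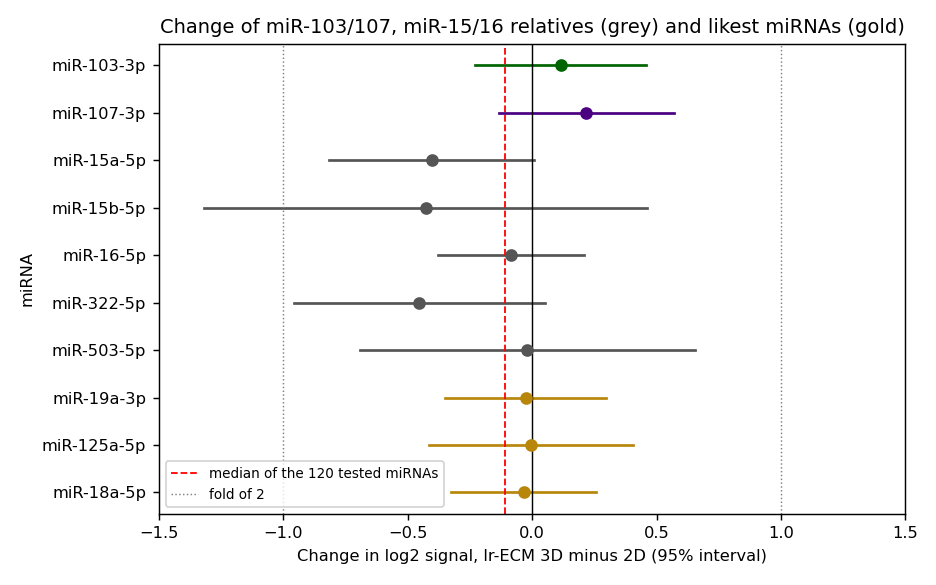
Change in log2 signal, lr-ECM 3D minus 2D, with its 95% interval by limma for miR-103-3p, miR-107-3p, the 5 tested relatives in grey and the 3 miRNAs of most similar profile in gold. Every interval shown includes 0, the pair lies at 0.11 and 0.22, and the relatives lie from -0.45 to -0.02.

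MiRNAs of most similar profile were found by the root mean square difference between log2 signals over the 6 arrays, each profile first centred on its own mean, among the same 48 miRNAs. MiR-103-3p and miR-107-3p themselves differed by 0.0633. The 3 nearest of the other 47 were the same for both: miR-19a-3p (0.0871 from miR-103-3p and 0.145 from miR-107-3p), miR-125a-5p (0.0914 and 0.149) and miR-18a-5p (0.105 and 0.161). The median over the 47 was 0.249 for miR-103-3p and 0.298 for miR-107-3p. MiR-18a and miR-19a are products of the miR-17-92 cluster, which promotes growth in many tumours, and miR-125a is a relative of the lin-4 miRNA of worms. MiR-19a-3p had log2 signals of 7.33, 7.62 and 7.42 in 2D and 7.37, 7.51 and 7.40 in lr-ECM 3D, with the highest value on 2D replicate 2, whereas both members were highest on lr-ECM 3D replicate 2. The changes of the 3 miRNAs were -0.03, -0.00 and -0.03.

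Other miRNAs that lie in introns of protein-coding genes were taken as a group for comparison with the Pank miRNAs. Of 47 on the array, 18 were tested, 5 with a change above 0 and 13 below, and the median was -0.22. By limma, 3 were called higher and 0 lower, where 10.8% of all tested miRNAs were called higher and 0.833% lower. The 3 were miR-335-5p, hosted by the imprinted gene Mest, miR-452-5p, hosted by the GABA receptor gene Gabre, and miR-574-3p, hosted by Fam114a1. All 3 were well above background on 0 arrays in 2D and passed the filter through lr-ECM 3D alone, so they had to differ and nothing is read from their count. The lr-ECM 3D means of miR-335-5p and miR-452-5p, 4.70 and 5.06, lay under the mean limit of 5.26 in 2D, so neither a fold nor a p is given for them. MiR-574-3p, with a lr-ECM 3D mean of 7.24, was at least 3.95-fold above the mean limit of 5.26 in 2D. That limit averages 4.95, 7.02 and 3.80 over 2D replicates 1 to 3, so the mean lay only just above the limit of replicate 2. Its 2D values were all at the floor, so no p is given for it either. In contrast to these, miR-103-3p and miR-107-3p were detected in both cultures.

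Other miRNAs known for roles in insulin, glucose or lipid metabolism were examined because miR-103 and miR-107 share that role. Of 22 on the array, 13 were tested, 2 with a change above 0 and 11 below, with a median of -0.23 and a range from -0.57 to 0.12. In this list 11 of the 13 were well above background on all arrays. Among the 48 such miRNAs on the array 0 were called and 46 had a change below 0. None of the 13 was called, against 11.7% of all tested miRNAs, and 1 of 13 had an unadjusted p under 0.05 by limma, against 29 of 120. The 2 brightest were miR-29a-3p, at 9.75 ± 0.23 in 2D and 9.85 ± 0.10 in lr-ECM 3D, with a change of 0.10 (limma, adjusted p = 0.687), and miR-29b-3p, at 9.71 ± 0.08 and 9.65 ± 0.07, with a change of -0.06 (limma, adjusted p = 0.728; SD, n = 3 each). MiR-107-3p, at 0.22, lay above the highest change of this group, 0.12. These 2 values differed by less than the standard error of 0.14 for miR-107-3p, so their order is not resolved.

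The size of the change, unlike the absence of a call, depended on the scaling. With no scaling the changes were 1.47 for miR-103-3p and 1.57 for miR-107-3p, where the median of all tested miRNAs was 1.24, and with the deposited log2 values they were 0.97 and 1.09 against a median of 0.76. Relative to the median the pair thus stood 0.21 to 0.33 higher under both. With Agilent's total gene signal the changes were 0.52 and 0.53 against a median of 0.66, which placed the pair 0.14 and 0.12 below the median. With quantile normalization miR-103-3p was at 0.07 and miR-107-3p at -0.0026. Neither miRNA was called under any of the alternatives that could be fitted.

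**Figure D5:**
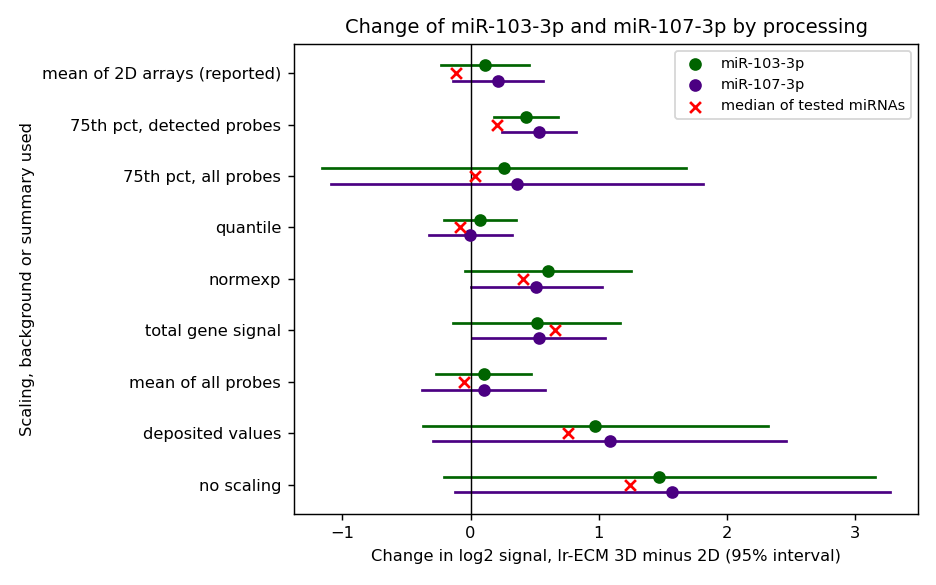
Change in log2 signal of miR-103-3p and miR-107-3p, lr-ECM 3D minus 2D, with 95% intervals under 9 choices of scaling, background correction or summary; crosses are the median change of the tested miRNAs under the same choice. The pair lies at 0.11 and 0.22 as reported, at 0.07 and -0.0026 with quantile normalization and at 1.47 and 1.57 without scaling, where the median is 1.24.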

How the data were processed

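Total RNA (100 ng) from 3 replicates per culture was labelled with Cy3 and hybridised to 1-colour Agilent mouse miRNA arrays. The authors extracted the deposited spot intensities with Feature Extraction 10.7.3.1, on a linear scale after background subtraction and with no scaling between arrays; other columns, per the file headers, hold flags. The authors' log2 values in the deposited series table matched log2 intensity, floored at 1, up to 1 constant per array (largest departure 0.049, found from the values), and column medians ran from -0.04 to 0.82. It was used as an alternative.

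Control spots and outlier spots (10 of the 240 spots of the 4 probes) were left out and spots were averaged per probe. Arrays were scaled linearly to the mean of the 2D arrays over miRNA probes (factors 1.04, 4.43, 0.552 in 2D and 0.447, 0.575, 0.589 in lr-ECM 3D), a reading of the methods' scaling to control samples, floored at 1 and converted to log2. Scaling raises the background of a dim array, whose lowest signal well above background came to 7.02 on 2D replicate 2 against 3.30 to 4.95 on the others. The brightest probe stood for a miRNA. Mouse miRNAs that every array of 2D or of lr-ECM 3D showed well above background were tested two-sided with lmFit and eBayes (limma 3.58.1, R 4.3.3), Benjamini-Hochberg adjusted over all 120, and probes likewise over all 237. Differences within an array were compared with an exact permutation test. Precision is limited by the number of arrays.

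Named miRNAs were the family by probe, the tested relatives with AGCAGC, called members (or else the 2 brightest) of the intronic and metabolism lists, and the 3 nearest profiles. miR-125a-5p and miR-29a-3p were also named for their place among the 48, after values were seen. The members, lists and rules were chosen with earlier results of these data known. Sequences and hairpin positions came from RefSeq (GRCm38.p6), matched by name. On data simulated for lr-ECM 3D against 2D, 30 of 120 miRNAs were shifted by 2 on the log2 scale. That is more than the fold of 2 of a call, and smaller shifts were not simulated. At the arrays' own spread 90% were recovered with 2 false calls, and 100% with 0 at an SD of 0.25. Alternatives covered scaling (75th percentile, none, quantile), normexp with an offset of 50, summary by total gene signal or the mean over probes, a floor at 10, the deposited values, filters, each array left out, a block for the replicate number, the methods' t-test, a trended robust eBayes prior and, added after seeing the data, outlier spots kept and the relatives without 2D replicate 2.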

Additional observations from a re-analysis of the deposited data

How the results depend on the processing

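Neither miRNA was called under 22 alternatives for miR-103-3p and 21 for miR-107-3p, which a filter on all 6 arrays leaves out, and 0 of the family's probes were called under 20. The change of miR-103-3p ranged from 0.03 to 1.47 and kept its direction. That of miR-107-3p reached 1.57 and was reversed only with quantile normalization, at -0.0026. With 1 array left out the ranges were 0.03 to 0.18 and 0.12 to 0.27. The difference of the 2 miRNAs on 1 array changed by -0.10, by 0.076 with quantile normalization, by 0.090 with normexp, and by -0.14 to -0.09 with 1 array left out. Causes were not tested.

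Of all tested miRNAs 14 were called. Counts were 25 with the 75th percentile over all probes, 27 with no scaling, 24 with quantile normalization, 26 with total gene signal, 27 with the deposited values, 32 with no filter, 0 with a filter on all 6 arrays (fewer miRNAs tested), and 12 to 32 with 1 array left out, 32 without 2D replicate 2. The share of higher calls, 92.9%, was 79.2% with quantile normalization and 100% with the other scalings. Calls in the miR-15/16 group rose from 0 to 1 with no filter (miR-195a-5p) and in the metabolism list from 0 to 2. In the intronic list 3 became 6 with quantile normalization and 0 with a filter on all 6 arrays; with 1 array left out the counts were 0 for the first 2 lists and 3 to 4 for the intronic list.

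Same-numbered arrays of the 2 groups had correlations of their deviations of -0.323, -0.370 and 0.158. Those with different numbers ranged from -0.317 to 0.352. With 3 arrays per group, these values cannot show whether the numbers pair the samples. With the replicate number as a block, the changes stayed at 0.11 (limma, adjusted p = 0.541) and 0.22 (adjusted p = 0.329), and 12 miRNAs were called. The dim array of 2D replicate 2 sets the limit: miR-107-3p was under its lowest signal well above background.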

Other observations

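Single bright spots were present among the replicate spots of the family. On 2D replicate 3, 1 spot of the dimmer miR-103-3p probe read 799 linear units where the used spots of that probe read 112 to 141, and on lr-ECM 3D replicate 2, 1 spot of the dimmer miR-107-3p probe read 972 where the used spots read 38.6 to 52.1. Both carried the outlier flag. With outlier spots kept, an alternative chosen after seeing the data, the changes of miR-103-3p and miR-107-3p were 0.18 (limma, adjusted p = 0.336) and 0.28 (limma, adjusted p = 0.181).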
